A study of Mus musculus with 8 samples.

Results

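The RNF and TRIM genes are large families of ubiquitin ligase genes named after the RING finger and the tripartite motif. This account covers those with a measurable count in mouse quadriceps, apart from the muscle RING-finger genes Trim63, Trim55 and Trim54 (MuRF1, MuRF2 and MuRF3). Members were all gene symbols beginning with Rnf or Trim and a digit, with a summed count of at least 80 over the 8 libraries. Of 154 such symbols in a table of 53819, 3 were the MuRF genes, 53 fell below that count and 98 were members, 62 of them RNF and 36 TRIM genes. The genes nearest to the limit were Trim5 with a summed count of 73.5 and Rnf32 with 68 on the outside, and Trim66 with 80 and Trim14 with 89 on the inside.

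A RING ligase holds a ubiquitin-charged conjugating enzyme through its RING domain and a substrate through another domain, so that ubiquitin passes to the substrate and often marks it for the proteasome. TRIM proteins carry, in order, a RING domain, B-box zinc fingers and a coiled coil, followed by a variable end that binds the target. In wasting muscle the family is best known for MuRF1, which acts on thick filament proteins. Many other members act in DNA repair, protein quality control, membrane traffic or antiviral defence.

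The series compared 2 groups of C57BL/6J mice of wild type genotype that were 8 weeks old at the start. The 4 tumor mice received 500000 cells of the line B0092, a head and neck squamous cell carcinoma, under the skin at the nape in 200 uL of PBS. The 4 control mice received the same volume of PBS alone, as vehicle. Quadriceps RNA was taken on day 36, when the tumor mice had lost weight, and all tumors came from that 1 cell line. The sex of the mice is not given in the sources used here.

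Each library came from 1 mouse and held 28474239 to 32093800 counts in tumor mice and 28436254 to 36139478 in controls. Levels are given as CPM, read counts scaled to a common library size with the TMM method. A gene was called when its p from the quasi-likelihood test of edgeR, adjusted by Benjamini-Hochberg over 14070 genes, was below 0.05. The 10 myofibre markers summed to 87866 to 146047 CPM in tumor muscle and 121013 to 151653 CPM in control muscle, so muscle fibre RNA was abundant in every library. Fibre makeup varied: Myh4, the myosin of the fastest fibres, made up 80.3% of adult myosin heavy chain CPM in tumor library 2 and 64.6% in control library 4, against 88.5% to 98.9% in the other libraries. Among markers of other cells, 2 of 6 fibro-adipogenic genes fell (sums of 169 to 368 CPM in tumor muscle and 408 to 577 CPM in control muscle), as did 3 of 8 endothelial genes (103 to 205 and 179 to 281 CPM). Of 9 macrophage and leukocyte genes 1 rose (sums of 46.9 to 168 CPM in tumor muscle and 66.3 to 116 CPM in control muscle). Adipocyte markers summed to 14.5, 230, 13.3 and 8.58 CPM in tumor libraries 1 to 4 and to 138, 202, 66.5 and 4.17 CPM in control libraries 1 to 4. Of these 4 genes 0 were called with all libraries (0 with an unadjusted p under 0.05, and 0 by DESeq2 or limma-voom), but all 4 fell without tumor library 2 and control library 4 (median log2 fold change -3.31). Of 5 tested erythroid genes 0 were called by edgeR (0 with an unadjusted p under 0.05), DESeq2 or limma-voom, and 3 fell without tumor library 1 (sums of 46.5 to 276 CPM in tumor muscle and 115 to 239 CPM in control muscle). The fibro-adipogenic count was 1 without tumor library 3 or control libraries 1, 2 or 3, and 3 without tumor libraries 1 or 2; the macrophage count was 2 without tumor library 2. Of 12 squamous markers, Krt5, Krt14, Krt6a, Krt17, Dsg3 and Ivl were at 0 in all libraries. Trp63, which muscle also expressed in controls, rose (sums of the list 17.5 to 38.7 CPM in tumor muscle and 7.38 to 10.8 CPM in control muscle). The part of these cell types in the values of the ligase genes was not tested, and in whole muscle fewer cells of a type and less RNA per cell cannot be told apart.

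Of the 98 members, 96 were counted deeply enough to be tested, and 20 of these (20.8%) changed, 12 higher and 8 lower in tumor mice. That share is close to the 19.8% called among all 14070 genes (11.0% higher and 8.73% lower). Changes were modest. A change of 2-fold or more was called for 1 member upward and 2 downward, where 2.50% and 3.92% of all genes passed that limit. The median size of the log2 change, without regard to sign, was 0.27 among members and 0.37 among all tested genes. The median with its sign was 0.08 among members and 0.00 among all tested genes. For members it was 0.04 without tumor library 2, 0.05 without control library 1 and 0.00088 with upper-quartile scaling. Values of the groups did not overlap in 15 members that were higher and 9 that were lower (25.0% of all genes did not overlap). Of the RNF genes 8 rose and 5 fell of 62 tested, and of the TRIM genes 4 rose and 3 fell of 34 tested.

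With upper-quartile scaling the split of members was 7 higher and 9 lower, and that of all genes was 1169 higher and 1547 lower. Counts of calls also rested on single libraries, as they did for all genes. Leaving out tumor library 3 left 3 higher and 3 lower members (1190 genes in all), and leaving out control library 1 left the same counts (1110 genes in all). When control library 2 was dropped, 4 rose and 3 fell (1373 genes in all). When control library 3 was dropped, 5 rose and 3 fell (1858 genes in all). Dropping tumor library 4 or control library 4 gave 5 falls (1147 and 979 falls among all genes). Setting tumor library 2 and control library 4 aside together, the libraries with the lowest Myh4 share, gave 11 rises and 5 falls. That was 16.3% of members, where 20.7% of all genes were called.

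**Figure D1:**
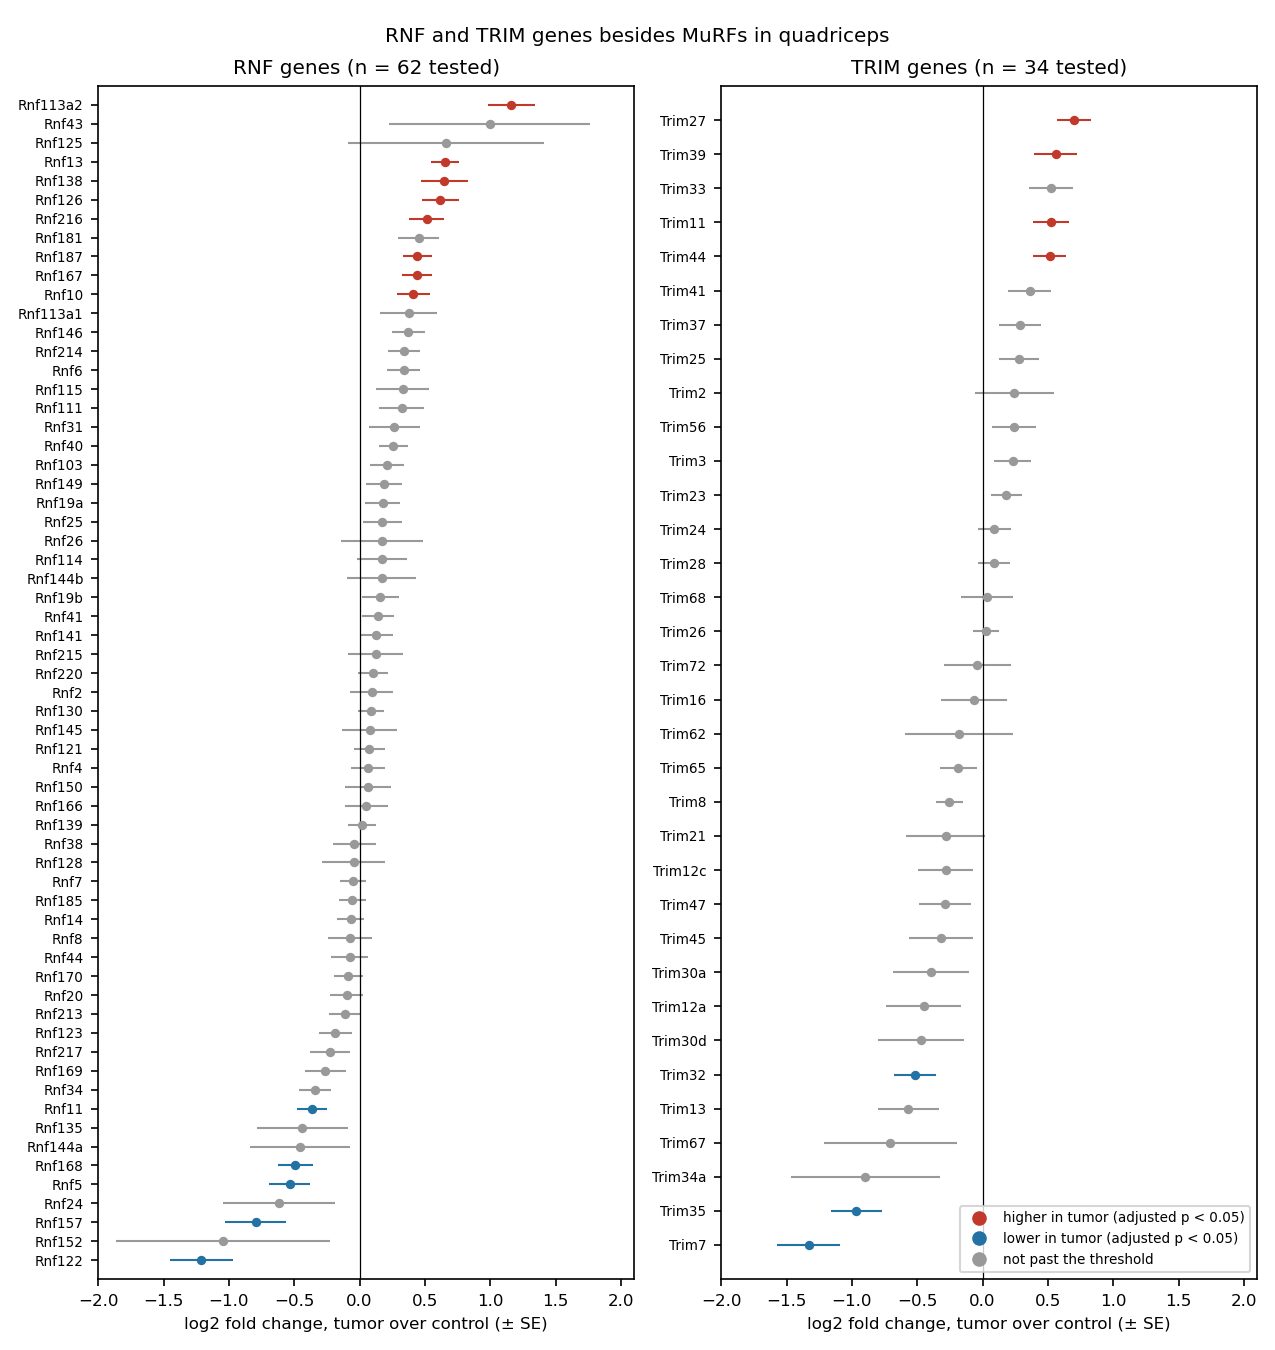
Log2 fold change of tumor over control for each tested RNF gene (left, 62 genes) and TRIM gene (right, 34 genes), with bars of 1 standard error; red and blue points passed the edgeR test. Most members lie close to 0, and the 20 called ones run from -1.33 for Trim7 to 1.16 for Rnf113a2.

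The changes were carried most firmly by 6 genes, namely Rnf113a2, Rnf13 and Trim27, which rose, and Trim7, Rnf122 and Trim35, which fell. These were the only members called in all 8 fits with 1 library left out. They were also called under all 7 other scalings, filters and tests, and without control library 4 and tumor library 2 together. In the 8 fits with 1 library left out, 1110 to 2845 of all genes were called, against 2781 with all libraries. How many of all called genes held in every fit was not counted.

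Rnf113a2, an intronless copy of the splicing and DNA repair gene Rnf113a1, was at 21.9, 32.1, 23.9 and 19.7 CPM in tumor mice and at 10.4, 9.53, 13.5 and 10.1 CPM in controls. All tumor values lay above all control values, with tumor library 2 the highest. It rose 2.24-fold (log2 fold change 1.16 ± 0.18, SE, adjusted p = 0.00437, edgeR). The other copy, Rnf113a1, averaged 3.52 ± 0.75 CPM in tumor mice and 2.72 ± 0.33 CPM in controls (SD, n = 4 each) and was not called (log2 fold change 0.37 ± 0.22). Reads that match the 2 copies equally could be shared between them, so the values are uncertain to that extent, although the estimated counts of both were whole numbers in all 8 libraries.

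Rnf13 encodes a ligase of endosome and lysosome membranes. Its level was 44.0, 56.1, 47.0 and 51.7 CPM in tumor mice and 30.1, 33.2, 32.4 and 30.7 CPM in controls. The groups were far apart compared with the narrow spread among controls. The rise was 1.57-fold (log2 fold change 0.65 ± 0.11, adjusted p = 0.00561, edgeR). Trim27, which regulates endosomal sorting through the retromer-linked WASH complex, was at 22.2, 25.1, 28.9 and 25.0 CPM in tumor mice and at 13.9, 15.1, 18.1 and 15.3 CPM in controls. Again no value overlapped, and library 3 was the highest of each group. Trim27 rose 1.62-fold (log2 fold change 0.70 ± 0.13, adjusted p = 0.0074, edgeR).

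Trim7 showed the largest fall. Its protein is also known as glycogenin-interacting protein, after the primer of glycogen synthesis that it binds. Its level was 12.5, 9.64, 7.77 and 16.4 CPM in tumor mice and 33.7, 29.2, 21.1 and 32.6 CPM in controls. The lowest control, library 3, still exceeded the highest tumor library, library 4. The fall was 2.51-fold (log2 fold change -1.33 ± 0.24, adjusted p = 0.00715, edgeR). Trim7 overlaps the predicted gene Gm12184 on the opposite strand by up to 140 bases of exon. Without the strand setting of the counting, reads from the shared bases cannot be told apart.

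Rnf122, a ligase with a transmembrane segment, was at 4.28, 3.08, 4.63 and 6.95 CPM in tumor mice and at 13.8, 10.1, 9.58 and 10.4 CPM in controls. All tumor values were below all controls, and control library 1 stood highest. The fall was 2.31-fold (log2 fold change -1.21 ± 0.24, adjusted p = 0.0104, edgeR). Trim35, known in liver cancer cells as a partner of the pyruvate kinase PKM2, was at 67.2, 55.9, 52.3 and 59.5 CPM in tumor mice and at 129, 147, 107 and 76.1 CPM in controls. The tumor values lay close together while the controls spread widely, with control library 4 nearest to the tumor mice. Trim35 fell 1.95-fold (log2 fold change -0.97 ± 0.19, adjusted p = 0.0104, edgeR).

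**Figure D2:**
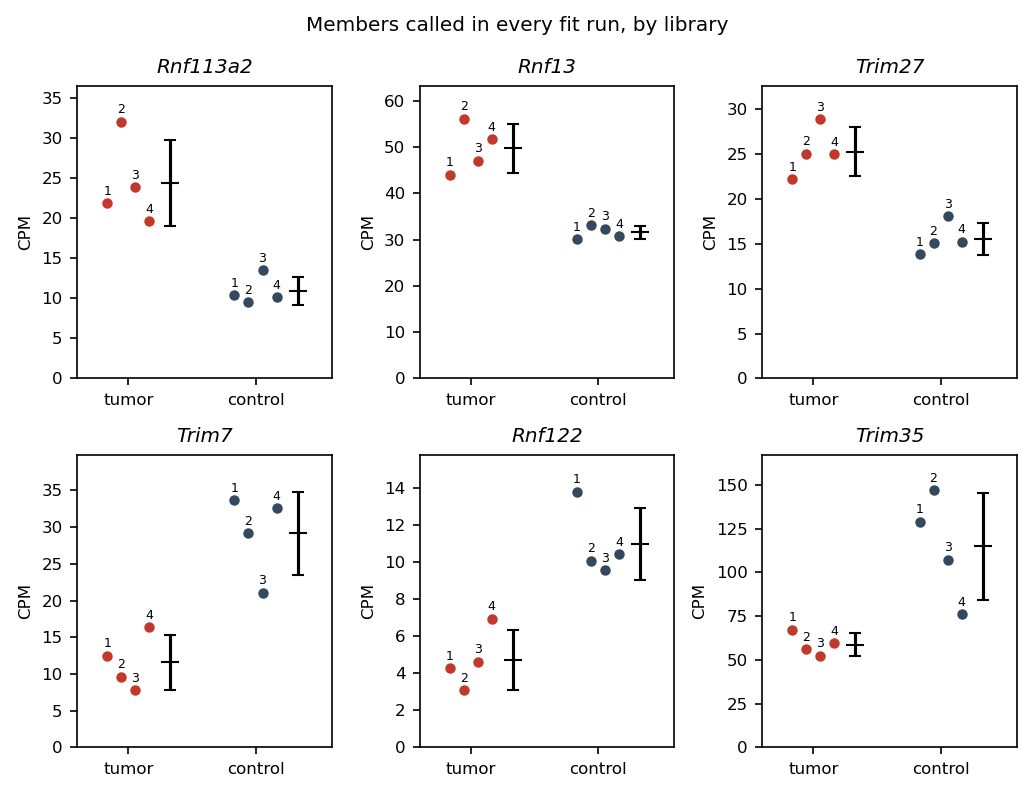
CPM of the 6 members called in every fit, by library; points are mice with their library numbers, and bars give the mean and SD of 4 mice. The top row holds the genes that rose (tumor Rnf13 44.0 to 56.1 CPM, control 30.1 to 33.2 CPM) and the bottom row those that fell (tumor Trim7 7.77 to 16.4 CPM, control 21.1 to 33.7 CPM); no tumor point overlaps a control point.

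The 250 bases before the annotated start are shown for Rnf13, Trim27 and Trim7, the members of this set with an entry in RefSeq's promoter table (build GRCm38.p6), which held 77 of the 98 members. All 4 lie on the plus strand and are written 5′ to 3′. Capitals mark GC boxes (GGGCGG, a site of SP1-type factors) and CCAAT boxes (CCAAT), searched on both strands. The Rnf13 window is chr3:57735807-57736056 and that of Trim27 is chr13:21179681-21179930. The 2 start sites of Trim7 give chr11:48825888-48826137 (site 1) and chr11:48837221-48837470 (site 2).
Rnf13: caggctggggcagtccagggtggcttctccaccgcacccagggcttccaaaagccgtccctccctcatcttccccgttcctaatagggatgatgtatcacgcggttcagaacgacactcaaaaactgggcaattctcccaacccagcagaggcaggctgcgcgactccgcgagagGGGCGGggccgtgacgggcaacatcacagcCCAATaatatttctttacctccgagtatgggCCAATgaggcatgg
Trim27: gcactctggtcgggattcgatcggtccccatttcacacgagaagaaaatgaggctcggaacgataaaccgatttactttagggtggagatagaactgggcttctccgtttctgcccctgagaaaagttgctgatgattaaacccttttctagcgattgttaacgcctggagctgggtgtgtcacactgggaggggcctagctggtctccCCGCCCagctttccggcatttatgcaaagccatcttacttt
Trim7 site 1: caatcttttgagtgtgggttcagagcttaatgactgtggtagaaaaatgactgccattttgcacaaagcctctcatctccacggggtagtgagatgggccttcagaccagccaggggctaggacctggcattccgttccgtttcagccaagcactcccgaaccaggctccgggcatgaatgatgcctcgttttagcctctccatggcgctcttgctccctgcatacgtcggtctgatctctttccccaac
Trim7 site 2: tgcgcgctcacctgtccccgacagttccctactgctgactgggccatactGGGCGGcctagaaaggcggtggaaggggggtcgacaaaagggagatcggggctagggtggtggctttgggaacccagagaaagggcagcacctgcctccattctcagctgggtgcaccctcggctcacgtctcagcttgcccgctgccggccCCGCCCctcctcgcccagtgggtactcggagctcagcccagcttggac
The FOXO core (TGTTTAC), the glucocorticoid receptor half-site (AGAACA), the E-box (CACGTG) and the CRE (TGACGTCA) were searched as well, and these letters were in none of the 4 windows. Over the 103 windows of the 77 members, 59.2% held a GC box and 37.9% a CCAAT box, against 32.7% and 33.8% of 32851 windows of all genes. The FOXO core was in 3.9% of members' windows and 3.2% of all, and the glucocorticoid half-site in 8.7% and 16.1%. The NRF1 site was in 1.9% and 0.8%, and the 2 member windows with it were among the 11 of members called higher. Of those 11 windows, 9 held a GC box, 3 a CCAAT box, 1 the glucocorticoid half-site and 1 the E-box. The split of the NRF1 site by call rests on 2 windows and was not tested. Member windows were richer in G and C than all windows (medians of 58.8% and 52.4%), and the part of base composition in these shares was not tested. A match is a string of letters and not a bound site.

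Of the ligases tied to striated muscle, Trim32 fell and Trim72 did not change beyond the spread between mice. Trim32 ubiquitinates desmin and thin filament proteins, and its loss in humans causes a limb-girdle muscular dystrophy. It was at 8.92, 5.71, 6.42 and 7.49 CPM in tumor mice and at 10.6, 11.1, 9.72 and 9.49 CPM in controls. The groups did not overlap, but tumor library 1 came close to control library 4. The fall was 1.43-fold (log2 fold change -0.52 ± 0.16, adjusted p = 0.0482, edgeR). The call was lost without tumor libraries 2, 3 or 4 or any of the control libraries 1, 2, 3 and 4 (adjusted p from 0.0566 to 0.136).

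Trim72 (MG53), which seals breaks in the fibre membrane and acts on the insulin receptor substrate IRS1, had the highest level per kilobase of exon of all members. Length was that of all annotated exons of a gene combined, and in plain CPM Rnf10 was higher. Trim72 was at 144, 143, 183 and 283 CPM in tumor mice and at 155, 154, 201 and 265 CPM in controls. Library 4 was the highest in each group, and the ranges overlapped almost fully (log2 fold change -0.04 ± 0.26, adjusted p = 0.929, edgeR). Rnf207, a ligase gene of heart muscle, had a summed count of 25 and was no member. The MuRF genes, left out by the rule, went in different directions: Trim63 averaged 1469 ± 922 CPM in tumor mice and 327 ± 83.5 CPM in controls (called higher), Trim55 39.0 ± 6.66 and 60.1 ± 5.64 CPM (called lower), and Trim54 466 ± 85.8 and 417 ± 39.3 CPM (not called; SD, n = 4 each).

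**Figure D3:**
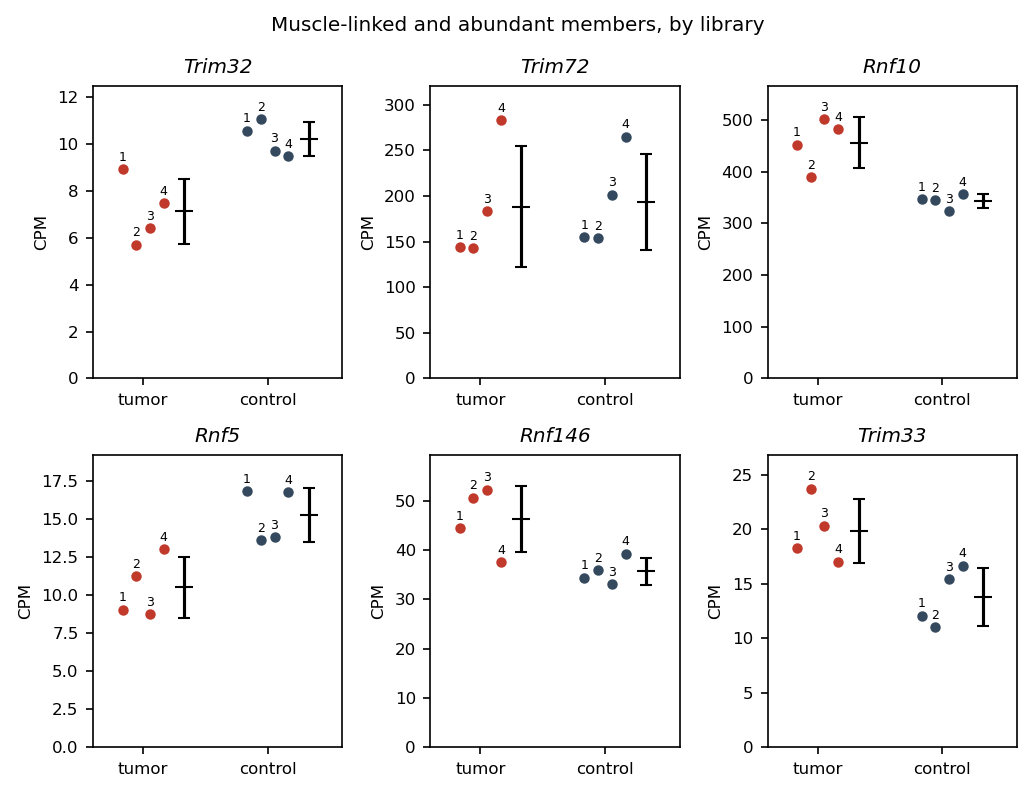
CPM by library of the muscle-linked members Trim32 and Trim72, the most counted member Rnf10, and Rnf5, Rnf146 and Trim33; points are mice with their library numbers, and bars give the mean and SD of 4 mice. Trim32 and Rnf5 lie lower in tumor mice without overlap, Rnf10 and Trim33 higher, Trim72 overlaps between 143 and 283 CPM in tumor mice and 154 and 265 CPM in controls, and Rnf146 overlaps through tumor library 4 and control library 4.

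Levels differed widely among members. Lengths include exons of isoforms that muscle may not use, so orders per length are approximate. After Trim72 (84.3 CPM per kilobase of exon in tumor mice and 86.7 in controls), the highest levels per length were those of Rnf187 (61.4 and 45.1), Rnf10 (60.4 and 45.4), Rnf126 (55.2 and 36.0) and Rnf7 (39.4 and 40.8). Rnf187 and Rnf10 were at nearly the same level per length in each group. Trim35, at 12.7 in tumor mice and 24.9 in controls, and the MuRF gene Trim55, at 14.7 and 22.6, had similar levels per length. Trim63 was at 517 and 115, above every member in each group. At the low end Rnf152 was at 0.0452 in tumor mice and 0.0940 in controls.

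**Figure D4:**
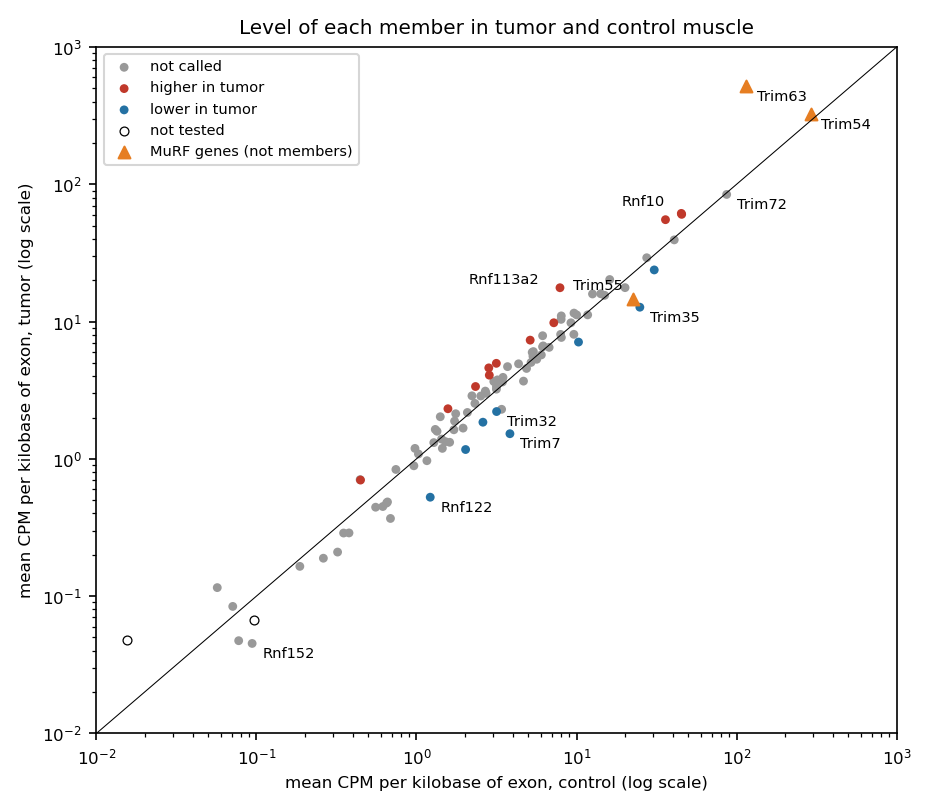
Mean CPM per kilobase of exon of each member in tumor (vertical) and control mice (horizontal), on log scales, with the line of equal levels; triangles are the MuRF genes. Members span from Trim66 at 0.0155 in controls to Trim72 at 86.7, and called members lie close to the line.

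Members summed to 2886, 2950, 3061 and 3060 CPM in tumor mice and 2689, 2805, 2852 and 2781 CPM in controls. Every tumor library exceeded every control, by a ratio of means of 1.07 (exact permutation p = 0.0286, two-sided, the smallest the 70 splits can give; 0.0429 adjusted over 3 sums). The RNF genes summed to 2224, 2256, 2367 and 2269 CPM in tumor mice and 1987, 2074, 2084 and 1997 CPM in controls (ratio 1.12, exact permutation p = 0.0286, adjusted 0.0429). The TRIM genes summed to 662, 694, 694 and 792 CPM in tumor mice and 702, 731, 768 and 784 CPM in controls, and these groups overlapped (ratio 0.95, exact permutation p = 0.286, adjusted 0.286). Without Rnf10 the ratio for all members was 1.04 (exact permutation p = 0.0857) and that for RNF genes 1.08 (exact permutation p = 0.0286). With upper-quartile scaling the ratio for all members was 1.02 (exact permutation p = 0.371). With any 1 of the 4 control libraries dropped, all tumor sums still exceeded all control sums and the ratio was 1.06 to 1.08 (exact permutation p = 0.0571 in each case, since 1 other split of the 7 libraries gave a difference as large).

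Of the abundant members outside the role lists, Rnf10, Rnf126 and Rnf187 rose. Rnf10, which ubiquitinates small ribosomal subunit proteins on stalled ribosomes, was at 452, 390, 501 and 482 CPM in tumor mice and at 346, 345, 324 and 356 CPM in controls. The groups did not overlap, and tumor library 2 was nearest to the controls. The rise was 1.33-fold (log2 fold change 0.41 ± 0.13, adjusted p = 0.047, edgeR). Rnf126, which works with the chaperone BAG6 on mislocalised proteins, was at 90.5, 75.0, 109 and 102 CPM in tumor mice and at 61.8, 65.2, 66.7 and 51.3 CPM in controls. Here too the groups were separate, with tumor library 2 the lowest of its group. It rose 1.54-fold (log2 fold change 0.62 ± 0.15, adjusted p = 0.0186, edgeR). Rnf187, a coactivator of AP-1 also called RACO-1, averaged 120 ± 12.2 CPM in tumor mice and 88.0 ± 4.49 CPM in controls (SD, n = 4 each) and rose 1.36-fold (adjusted p = 0.0256, edgeR).

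These calls depended on single libraries. With no count filter, 10 of the 20 calls were lost, namely those of Rnf10, Rnf187, Rnf167, Rnf138, Rnf168, Rnf5, Rnf11, Trim11, Trim32 and Trim39. Without control library 4 and tumor library 2 together, the calls of Rnf5, Rnf138, Rnf168, Rnf216, Trim32 and Trim39 were lost. The Rnf10 call held without tumor library 2 but was lost without any other 1 of the 8 libraries (adjusted p from 0.0648 to 0.138). The Rnf126 call was lost without tumor library 3 or control library 1 (adjusted p from 0.0614 to 0.0643). The Rnf187 call was lost without tumor library 3 or control libraries 1, 2, 3 or 4 (adjusted p from 0.0539 to 0.086). Upper-quartile scaling ended the calls of Rnf10, Rnf187, Rnf167, Rnf138 and Trim39, and DESeq2 size factors that of Rnf10.

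The membrane ligases with a protease-associated domain sit in endosomes, lysosomes and the cell surface. Of the 8 tested, 2 rose and none fell at the edgeR threshold (among all genes, 11.0% and 8.73%). Of these 8, 2 had an unadjusted p under 0.05. Their median log2 fold change was 0.15, and 0.08 with upper-quartile scaling, and no role group was tested against all genes. The rises were those of Rnf13 and of Rnf167, a lysosomal ligase. Rnf167 averaged 34.7 ± 3.33 CPM in tumor mice and 25.5 ± 2.23 CPM in controls (SD, n = 4 each), without overlap, and rose 1.36-fold (log2 fold change 0.44 ± 0.11, adjusted p = 0.0267, edgeR). The Rnf167 call was lost without tumor libraries 1 or 3 or control libraries 1, 2 or 4 (adjusted p from 0.0505 to 0.0933). Its exons overlap those of the mitochondrial carrier gene Slc25a11 on the opposite strand by up to 189 bases, so its value is uncertain without the strand setting.

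Of 8 tested ligases of the endoplasmic reticulum, 1 fell and 7 were not called (8.73% of all genes fell). Their median log2 fold change was near 0 and had no steady direction, at 0.05 with all libraries, -0.04 without tumor library 1, -0.06 without tumor library 4 and -0.03 with upper-quartile scaling. The gene that fell was Rnf5, which takes part in the removal of misfolded proteins from that membrane. It was at 9.05, 11.2, 8.74 and 13.0 CPM in tumor mice and at 16.8, 13.6, 13.8 and 16.8 CPM in controls. Tumor library 4 came within a small distance of control library 2. The fall was 1.45-fold (log2 fold change -0.54 ± 0.16, adjusted p = 0.0419, edgeR), and the call was lost without tumor libraries 1 or 3 or control libraries 1, 2, 3 or 4 (adjusted p from 0.0634 to 0.123). Rnf103, with the next smallest p of the group, averaged 20.6 ± 2.38 CPM in tumor mice and 17.8 ± 1.96 CPM in controls and was not called (log2 fold change 0.21 ± 0.13, adjusted p = 0.278, edgeR).

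The 9 ligases of chromatin, DNA damage and SUMO signals showed 1 rise and 1 fall (among all genes, 11.0% and 8.73%). Their median log2 fold change was near 0 as well, at 0.07 with all libraries, -0.05 without tumor library 2, -0.01 without control library 4 or with upper-quartile scaling, and 0.12 without control library 2. Rnf168 writes ubiquitin on histone H2A beside DNA breaks, and Rnf138 helps to clear Ku from broken ends. Rnf168 averaged 8.25 ± 0.87 CPM in tumor mice and 11.6 ± 1.22 CPM in controls, a 1.41-fold fall (adjusted p = 0.0306, edgeR). Rnf138 averaged 5.70 ± 0.88 CPM in tumor mice and 3.64 ± 0.39 CPM in controls, a 1.57-fold rise (adjusted p = 0.0346, edgeR; SD, n = 4 each). Neither gene's groups overlapped. Rnf111 (Arkadia), which degrades inhibitors of TGF-beta signalling, averaged 14.5 ± 2.71 CPM in tumor mice and 11.6 ± 1.83 CPM in controls and was not called (log2 fold change 0.32 ± 0.17, adjusted p = 0.215, edgeR). The Rnf168 call was lost without tumor library 3 or control libraries 1, 2 or 3 (adjusted p from 0.0611 to 0.0949). The Rnf138 call held without tumor library 4 but not without any other 1 of the 8 (adjusted p from 0.0517 to 0.105).

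The TRIM proteins that bind chromatin as transcription cofactors gave no edgeR call in 3 tested genes (19.8% of all genes were called). Of the 3, 1 had an unadjusted p under 0.05, and DESeq2 and limma-voom called 1 each. That gene was Trim33, a regulator of SMAD4 signalling, with 18.3, 23.8, 20.3 and 17.0 CPM in tumor mice and 12.1, 11.0, 15.4 and 16.7 CPM in controls. Its groups did not overlap, and it lay just outside the threshold (log2 fold change 0.52 ± 0.17, adjusted p = 0.0519, edgeR). It passed without tumor library 4 or control library 4 (adjusted p from 0.0385 to 0.0446). Trim28 (KAP1), the corepressor of KRAB zinc finger proteins, averaged 40.7 ± 4.44 CPM in tumor mice and 38.4 ± 3.98 CPM in controls (log2 fold change 0.09 ± 0.12). Trim24, a nuclear receptor cofactor, averaged 55.7 ± 3.82 and 52.3 ± 7.44 CPM (log2 fold change 0.09 ± 0.13; SD, n = 4 each).

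Of 8 tested RING-between-RING ligases, which pass ubiquitin through a bound intermediate, 1 rose and 7 were not called (11.0% of all genes rose). Their median log2 fold change was 0.16, but -0.03 without tumor library 2, -0.04 without that library and control library 4, and 0.09 with upper-quartile scaling or without control library 4 alone. Rnf216 (Triad3) was at 26.6, 35.8, 29.8 and 24.8 CPM in tumor mice and at 20.7, 21.6, 18.8 and 20.9 CPM in controls. The groups did not overlap, and tumor library 2 stood highest. The rise was 1.43-fold (log2 fold change 0.51 ± 0.13, adjusted p = 0.0265, edgeR), and the call was lost without tumor libraries 2 or 3 or control libraries 1, 2 or 3 (adjusted p from 0.0526 to 0.0769). Rnf31 (HOIP) encodes the catalytic subunit of the linear ubiquitin ligase. It averaged 21.0 ± 5.13 CPM in tumor mice and 17.4 ± 3.46 CPM in controls and was not called (log2 fold change 0.27 ± 0.19). Its exons overlap those of Irf9 on the same strand by up to 123 bases, and its estimated counts were not whole in 5 libraries. Rnf14 averaged 53.5 ± 3.92 and 56.1 ± 2.24 CPM (log2 fold change -0.07 ± 0.10), and Rnf217 averaged 18.4 ± 3.66 and 21.5 ± 2.18 CPM (log2 fold change -0.22 ± 0.15).

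Of 16 tested members with roles in innate immunity, 0 were called by edgeR (19.8% of all genes were). None had an unadjusted p under 0.05 in that test, DESeq2 called 0, and limma-voom called 0 with 1 unadjusted p under 0.05. With tumor library 1 left out, 1 fell (Trim12a, adjusted p = 0.0465, against 0.295 with all libraries, edgeR). Trim12a had 4.41, 2.37, 1.77 and 2.47 CPM in tumor mice and 3.10, 3.94, 4.02 and 3.98 CPM in controls, and tumor library 1 was the highest of all. The median log2 fold change of the 16 was -0.15, with 7 positive and 9 negative values. It was -0.25 over 17 genes without tumor library 2 and 0.01 for the 10 genes left by the strict count filter. Trim25, which ubiquitinates the RNA sensor RIG-I, averaged 12.3 ± 2.33 CPM in tumor mice and 10.1 ± 0.61 CPM in controls (log2 fold change 0.28 ± 0.15, adjusted p = 0.224, edgeR). Trim34a averaged 0.95 ± 0.76 and 1.78 ± 0.40 CPM (log2 fold change -0.90 ± 0.57). Trim21, a cytosolic antibody receptor, averaged 1.07 ± 0.24 and 1.30 ± 0.25 CPM (log2 fold change -0.28 ± 0.30; SD, n = 4 each). In the tested list of 29 interferon-stimulated genes 5 fell (17.2%, where 8.73% of all genes fell) and 0 rose. In that list 28 of the values were negative and their median was -0.61. That list summed to 85.2 to 127 CPM in tumor mice and 143 to 174 CPM in controls. The 17 immune members summed to 161 to 203 CPM in tumor mice and 155 to 185 CPM in controls. Abundant members such as Rnf114 (means of 53.5 CPM in tumor mice and 47.5 CPM in controls) weigh most in that sum, so it says little about those with few counts. Dropping tumor library 3, control library 1 or control library 2 left a count of 1 fall among the interferon-stimulated genes. Falls among all genes dropped as well, from 1229 to 482, 480 and 613. The count of interferon-stimulated genes was 2 when control library 3 was dropped and 3 when tumor library 4 was dropped. It was 9 when tumor library 1 was dropped, and DESeq2 called 9. In the same order, falls among all genes numbered 854, 1147, 1294 and 1728.

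The 3 tested NHL-repeat and microtubule TRIM genes gave no call by edgeR, DESeq2 or limma-voom, and none had an unadjusted p under 0.05. Of all genes 19.8% were called by edgeR, so no call among 3 genes says little about the group. Trim3, which is best known in neurons, averaged 17.2 ± 2.57 CPM in tumor mice and 14.6 ± 1.56 CPM in controls (log2 fold change 0.23 ± 0.14). Trim67, also a neuronal gene, averaged 0.41 ± 0.22 and 0.68 ± 0.32 CPM (log2 fold change -0.71 ± 0.51; SD, n = 4 each).

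**Figure D5:**
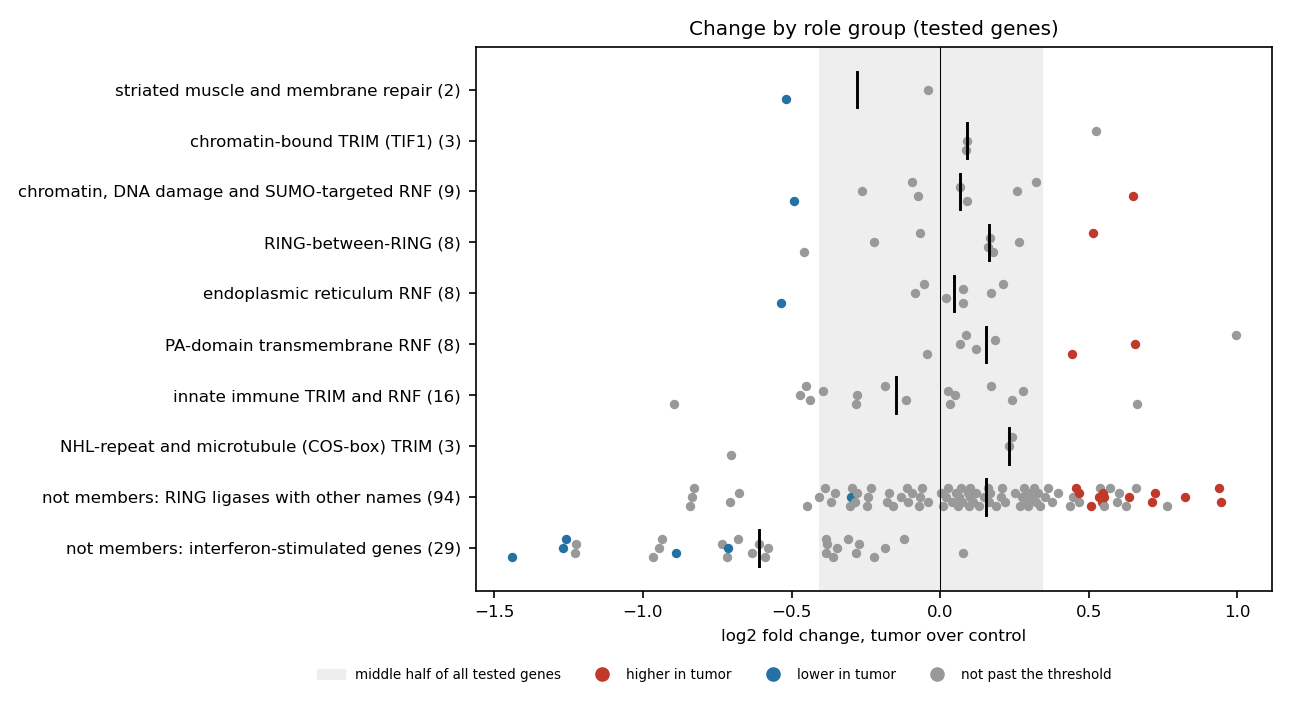
Log2 fold change of tumor over control by role group, with the number of tested genes; points are genes, black bars are group medians and the grey band is the middle part of all tested genes between the quartiles (-0.40 and 0.34). Called members are scattered over the groups, the immune members hold none, and the interferon-stimulated genes, which are not members, lie mostly below 0.

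Other TRIM and RNF genes outside these groups were also called. Trim44, a TRIM protein without a RING domain, averaged 41.3 ± 5.80 CPM in tumor mice and 29.0 ± 1.22 CPM in controls and rose 1.43-fold (adjusted p = 0.0206, edgeR). Trim11, which promotes clearance of misfolded proteins, averaged 12.0 ± 1.44 and 8.37 ± 0.84 CPM and rose 1.44-fold (adjusted p = 0.0268, edgeR). Trim39, named after its values were seen, averaged 16.7 ± 2.67 and 11.4 ± 1.99 CPM and rose 1.47-fold (adjusted p = 0.0428, edgeR). None of the 3 had overlapping groups. Among the genes that fell, Rnf11, a partner of the NF-kB inhibitor A20, averaged 101 ± 9.48 CPM in tumor mice and 130 ± 7.61 CPM in controls, a 1.29-fold fall without overlap (adjusted p = 0.0489, edgeR). Rnf157, a neuronal relative of Mgrn1, averaged 11.1 ± 2.56 and 19.3 ± 5.41 CPM and fell 1.73-fold (adjusted p = 0.0414, edgeR). Its groups overlapped, since control library 4 at 12.0 CPM lay below tumor library 1 at 14.6 CPM.

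The Trim44 call was lost without tumor library 3 or control libraries 1, 2 or 3 (adjusted p from 0.054 to 0.0727). Trim11 was lost without tumor libraries 1 or 3 or control libraries 1, 2 or 3 (adjusted p from 0.0535 to 0.088), and Trim39 without tumor libraries 1, 2 or 3 or control libraries 1, 2 or 3 (adjusted p from 0.0583 to 0.124). Rnf11 was lost without tumor libraries 3 or 4 or control libraries 1, 2, 3 or 4 (adjusted p from 0.0531 to 0.149). Rnf157 was lost without tumor libraries 2, 3 or 4 or control libraries 1, 2 or 3 (adjusted p from 0.0651 to 0.113).

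A further set of abundant or much studied RNF genes was not called. Rnf7 (RBX2), the RING subunit of cullin 5 ligases, averaged 52.3 ± 2.31 CPM in tumor mice and 54.2 ± 3.34 CPM in controls, with a narrow error on the difference (log2 fold change -0.05 ± 0.10, adjusted p = 0.752, edgeR). Rnf123 (KPC1), which acts on the cell cycle inhibitor p27, averaged 119 ± 9.99 and 136 ± 15.9 CPM (log2 fold change -0.19 ± 0.12, adjusted p = 0.319, edgeR). Rnf146, a ligase for proteins marked with poly(ADP-ribose), averaged 46.2 ± 6.68 and 35.7 ± 2.67 CPM (log2 fold change 0.37 ± 0.13, adjusted p = 0.0682, edgeR; SD, n = 4 each). Rnf146 passed without tumor library 4 (adjusted p = 0.0271). Its exons overlap those of Echdc1 on the opposite strand by up to 3129 bases, so its value is uncertain.

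In the RefSeq annotation (GRCm38.p6) 4 pairs of members were direct neighbours, and log2 fold changes had the same sign in 3 of them. These were Rnf125 and Rnf138 (0.66 and 0.65), Trim47 and Trim65 (-0.29 and -0.19), and Trim30a and Trim30d (-0.39 and -0.47), of which Rnf138 alone was called. None of the 3 is a clear match. Rnf125 ran from -0.31 to 1.24 with 1 library left out, and was at -0.55 without tumor library 2 and control library 4. Trim47 and Trim65 share up to 176 bases of exon on the same strand. Estimated counts of Trim30a and Trim30d were not whole in 5 libraries each, so their reads may have been shared out. In the fourth pair Trim41 lies next to Trim7 on chromosome 11. Trim41 averaged 27.7 ± 5.22 CPM in tumor mice and 21.6 ± 3.20 CPM in controls (SD, n = 4 each). Its log2 fold change of 0.36 ± 0.16 was not called (adjusted p = 0.15, edgeR), beside the fall of -1.33 for Trim7. Exons of Trim41 overlap those of Rack1 on the opposite strand by up to 31 bases. Rack1 had a summed count of 54106 and Trim41 one of 6120, so the Trim41 value is uncertain without the strand setting.

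Set apart by all tested members at once, the 2 groups separated. The principal component with 40.9% of the variance among the 96 members placed tumor libraries 1 to 4 at -2.12, -2.85, -3.52 and -0.46 and control libraries at 2.38, 2.52, 1.47 and 2.57. Tumor library 4 lay nearest to the controls, and the next component (21.4%) set tumor library 2 apart at -3.57. Among the 73 members with a mean of at least 5 CPM, the median coefficient of variation between mice was 13.7% in tumor mice and 10.6% in controls, and it was higher in tumor mice for 51 of them. This comparison of variation between mice was not made over all genes.

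As a comparison, 94 tested RING ligases with other names gave 13 rises and 1 fall (14.9% called, where all genes had 19.8%). By direction, 13.8% rose and 1.06% fell, where 11.0% and 8.73% of all genes did. The median change of these ligases was 0.15 on the log2 scale (0.09 without tumor library 2 and 0.08 with upper-quartile scaling). The rise with the smallest p was that of Zfp598, which marks collided ribosomes, at 56.1 ± 7.12 CPM in tumor mice and 29.3 ± 2.43 CPM in controls (1.92-fold, adjusted p = 0.00355, edgeR). The single fall was that of the mitochondrial ligase gene Mul1, at 28 ± 0.35 and 34.5 ± 1.5 CPM (SD, n = 4 each). Rises and falls numbered 7 and 4 with upper-quartile scaling, 20 and 5 by DESeq2 and 8 and 0 with no count filter. With tumor library 2 dropped they were 8 and 4, and with control library 3 dropped 8 and 0. With tumor library 3 or control library 2 dropped they were 4 and 0, and with control library 1 dropped 3 and 0. Of all genes, 19.3% were called with upper-quartile scaling, 26% by DESeq2 and 9.02% with no count filter. Without tumor libraries 2 or 3 the shares were 19.4% and 8.3%. Without control libraries 1, 2 or 3 they were 7.75%, 9.58% and 12.9%.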

How the data were processed

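Quadriceps RNA of 8 mice was sequenced as 1 library each, from total RNA with a poly(A) mRNA kit per the labels' protocols. The authors deposited estimated counts for 53819 gene symbols, 9% of the values not whole. Build GRCm39 and the programs Salmon 1.10.1, STAR 2.7.9a, Trim Galore 0.6.7, cutadapt 3.4 and R 4.2.2 are named per the submitters' processing notes. The role of each program, the annotation and the strand setting were not stated there. Counts were rounded to whole numbers, filtered by filterByExpr (minimum count 10, 14070 genes kept) and scaled by TMM. Groups were compared across all genes by the edgeR 4.0.16 quasi-likelihood F test (R 4.3.3, two-sided, threshold 0.05). A standard error is the size of the log2 change over the root of F. Sums per library were tested by exact permutation over 70 splits.

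Alternatives were DESeq2 1.42.0 size factors and test, upper-quartile scaling, limma-voom (limma 3.58.1), 2 other filters, a replicate block, left-out libraries and other minimum summed counts. Members, lists and the naming rule were chosen with earlier results of these data known. Named genes were up to 10 rises and 10 falls with the smallest p, a fixed set, the 3 members with the highest mean CPM and 2 genes per role list. Rnf113a1, Trim12a, Trim39, the neighbour pairs, Rnf152, Zfp598 and Mul1 were named after their values were seen. Exon lengths and overlaps came from GENCODE M21 and promoters from RefSeq, matched by symbol (98 of 98 members with a length). These are of GRCm38 and not of the build of the counts. The edgeR steps were tested on simulated counts. Between libraries of the same group, counts varied beyond sampling noise. Each came from a separate mouse, so p-values cover the spread between mice.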

Additional observations from a re-analysis of the deposited data

Results flagged for a closer look

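In groups of 4 libraries, 36 named members and 3 sums were checked for a single library far from the other 3, in 78 groups in all, and chance alone marks about 1 in 20. Among controls, Rnf168 stood high in library 2 at 13.4 CPM, Rnf187 stood low in library 4 at 81.3 CPM, and Rnf31 stood high in library 4 at 22.6 CPM. Control library 4 also had the lowest Myh4 share, 64.6%, and the part of fibre makeup in these values was not tested.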

How the results depend on the processing

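The 12 higher and 8 lower members became 7 higher with upper-quartile scaling (where the median log2 fold change was 0.00088, against 0.08), 6 and 4 with no count filter, and 5 lower with control library 4 and tumor library 2 left out. With the replicate number as a block they were 5 and 3, with 8 of the 20 called members shared. Of all genes, 19.3% were called with upper-quartile scaling and 9.02% with no count filter. The share was 20.7% with control library 4 and tumor library 2 left out, and 13.7% with the block. Same-numbered mice deviated together with correlations of 0.0281, 0.131, 0.197 and 0.0158, and only 2 of the 4 tumor libraries correlated best with their own number, so the numbers were not taken as pairs. With 1 library left out there were 3 to 13 higher and 3 to 8 lower members, and 7.75% to 19.8% of all genes were called. The ratio of summed CPM was 1.02 with upper-quartile scaling, 1.04 without Rnf10 and 1.06 to 1.09 with 1 library left out. With DESeq2 size factors, the strict count filter, DESeq2 and limma-voom, or with no minimum or a higher minimum summed count, counts of members stayed close to these. Of the 20 calls, 14 held without control library 4 and tumor library 2, and of 76 members not called, 5 passed in some fit with 1 library left out. No named member changed sign with a call. Sums with 1 library left out and alternatives for the RNF sum were chosen after seeing the data. With 4 mice a group, small changes of members with few counts were not detectable.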

Other observations

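Of the 53 RNF and TRIM symbols below the summed count of 80, 17 had no count in any library, 14 had 1 to 9 counts in all and 22 had more, with at most 25 counts in a single library. Trim29, which squamous epithelium expresses strongly, had 4 counts over the 8 libraries. Trim5 was the 1 symbol of this set tested, with 0.26, 0.10, 0 and 0.32 CPM in tumor mice and 0.31, 0.40, 0.52 and 0.40 CPM in controls, and it was not called (log2 fold change -1.24, adjusted p = 0.256, edgeR). Trim66, a member with too few counts for the test, was at 0.82, 0, 0.90 and 0.20 CPM in tumor mice and at 0.10, 0.033, 0.35 and 0.14 CPM in controls. Trim14, the other untested member, lay between 0.19 and 0.37 CPM in tumor mice and between 0.24 and 0.69 CPM in controls.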
